A study of Mus musculus with 7 samples.

Results

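Transcripts of 8 acute phase plasma protein genes (Saa1, Saa3, Saa4, Orm1, Hp, Hpx, Lcn2 and Apcs) and of the metallothionein genes Mt1 and Mt2 were followed in livers of newborn mice. They were taken as every probe set that the array's annotation assigns to one of these 10 symbols alone, which gave 13 probe sets of 45037 that are not controls. All 10 genes had at least 1 probe set, and Saa1, Saa4 and Mt1 had 2 each. The livers came from male C57BL/6J pups on day of life 1, an age at which the submitters describe knockout pups as free of symptoms. There were 4 livers from glycerol kinase knockout pups and 3 from wild type littermates of the same age, each liver extracted on its own and hybridised to 1 Affymetrix Mouse Genome 430 2.0 array. Glycerol kinase phosphorylates glycerol, and the comparison addresses transcript changes that come before overt disease. No treatment is named for either group, and the design of the knockout allele, the litters and the scan dates are not given in the sources used here.

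Acute phase proteins are plasma proteins, made mainly by hepatocytes, whose synthesis changes in inflammation. Interleukin 6 acting through STAT3, and interleukin 1 acting through NF-kappaB and C/EBP factors, are the known inducers. Metallothioneins are small cysteine-rich proteins that bind zinc and copper. Their genes are induced by zinc through the transcription factor MTF1 and by glucocorticoids, and fetal and newborn rodent liver is known for storing zinc on metallothionein.

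Mt1 and Mt2 are neighbours on mouse chromosome 8, with 0 other genes between them in RefSeq's annotation of GRCm38.p6 and 6265 bases between their annotated gene starts. RefSeq's promoter table places the start of Mt2 at its gene start but that of Mt1 206 bases inside the annotated gene, 6471 bases from the Mt2 start, and positions below count from the table's starts. Whether these are the starts used in liver was not examined, so parts of the known promoters may lie outside the windows. Because the levels of both genes are set side by side here, the 250 bases before the Mt2 start are shown, and for Mt1, whose window overlaps the annotated gene, the last 30, on the plus strand of GRCm38.p6. Capitals mark TGCACNC or TGCGCNC, the core of the metal response element that MTF1 recognises, on either strand.
Mt2, chr8:94172368-94172617: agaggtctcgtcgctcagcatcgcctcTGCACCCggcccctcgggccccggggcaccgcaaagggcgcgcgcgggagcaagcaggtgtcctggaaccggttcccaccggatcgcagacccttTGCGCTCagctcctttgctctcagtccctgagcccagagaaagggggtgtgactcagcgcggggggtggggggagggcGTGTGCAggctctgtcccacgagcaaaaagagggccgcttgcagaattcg
Mt1, chr8:94179059-94179088: cccgctgTGCACACtggcgctccagggagc
In the 300-base window that adds the first 50 bases after the start, the core was found 4 times for Mt2 and 3 times for Mt1. Its first base lay at positions -223, -128, -50 and 5 from the start of Mt2, and at -23, 3 and 21 from that of Mt1. Of 32851 such windows, 25.7% held the core at least once and 1.97% held it 3 or more times. Windows of 8 members were in the table (Apcs, Lcn2, Saa3, Saa4, Saa1, Hpx, Mt2 and Mt1), and the core was found in 0 of the 6 acute phase windows. The sequence TTCNNNGAA, which STAT factors bind, was found for Apcs only among the 8, against 8.3% of all windows. The C/EBP-type sequence TTNNGNAAT was found on either strand for Saa1 only, against 11.5% of all windows. Such matches describe letters in these windows and not binding.

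Values are linear intensities that the submitters had scaled to 1 common target per array, and fold changes were computed on log2(intensity + 16). Median intensities of the arrays ran from 92.7 to 108.3. Arrays correlated at r from 0.930 to 0.985 over tested probe sets, and 0 pairs were identical. Knockout 3 had the highest 3' to 5' control ratios, for example 1.07 for Gapdh against 0.899 to 0.961 in the other arrays. All 9 hepatocyte markers with a named probe set were measured and tested, with a mean log2 level of 14.6 to 14.7 in wild type and 14.6 to 15.0 in knockout, and none was at 0. All 8 measured erythroid precursor markers were lower in knockout, 2 of them past the threshold, with mean log2 levels of 12.5 to 12.8 in wild type and 12.2 to 12.4 in knockout. Both erythroid calls, of Slc4a1 and Rhag on their brightest probe sets, were lost under several settings, with adjusted p up to 0.189. Of 3 tested Slc4a1 probe sets 2 passed, and the other was at -0.81 (adjusted p = 0.112 in limma). Of the other marker lists, 0 of 8 endothelial, 0 of 8 stellate cell, 0 of 3 cholangiocyte and 0 of 4 lymphocyte genes passed. In a whole liver, fewer cells of a type and less RNA per cell cannot be told apart. Knockout 3 also stood apart for pancreas and gut markers, whose mean log2 level was 8.79 there, 7.03 to 7.20 in the other knockout livers and 6.62 to 6.91 in wild type. Cpa1, a pancreatic carboxypeptidase, read 497.9 in knockout 3 and 5.8 to 17.8 in the other 6 arrays. Ins2, an insulin gene, read 616.1 against 18.0 to 75.6. The pancreatic protease Ctrb1, chosen after its values were seen, read 3163 against 5.1 to 12.3. Vil1 and Cela1 of the list were not the highest in that array: Vil1 of gut epithelium was lowest there, at 5.7 against 12.9 to 35.0, and the elastase Cela1, at 1704, lay within the 825.7 to 1907 of the others. Of the list 2 genes were tested, and Fabp2, a fatty acid binding protein of gut, passed (log2 fold change 1.99, adjusted p = 0.0310 in limma; 1.77 and 0.0485 without knockout 3). Fabp2 read 1380 in knockout 3 and 1326 in knockout 4, and its call was lost on leaving out wild type 1, wild type 2 or knockout 4, with adjusted p up to 0.103. The part of the pancreatic transcripts in the values below was not tested. Results that rest on knockout 3 are given with and without it. The probe set of the deleted gene was not used here, so the genotype labels were not checked by it.

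No member was called different between the genotypes. Of the 13 probe sets 11, from 9 genes, were bright enough to be tested, and 0 passed a Benjamini-Hochberg adjusted p of 0.05 in limma in either direction. Across all tested probe sets 4.24% passed, 2.35% higher and 1.89% lower in knockout. At an unadjusted p under 0.05 there were 2 of the 11, Mt2 (lower) and Saa3 (higher), against 4896 of all 22518. By estimate 6 of the 11 were higher in knockout and 5 lower, with a median log2 fold change of 0.04 against -0.03 over all tested probe sets. The groups failed to overlap for 1 of the 11, Mt2, which was lower in knockout. The same held for 21.1% of all tested probe sets, and 11.8% did so with knockout lower. With 3 and 4 livers the intervals below, not the missed threshold, say how large a difference the data allow.

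**Figure D1:**
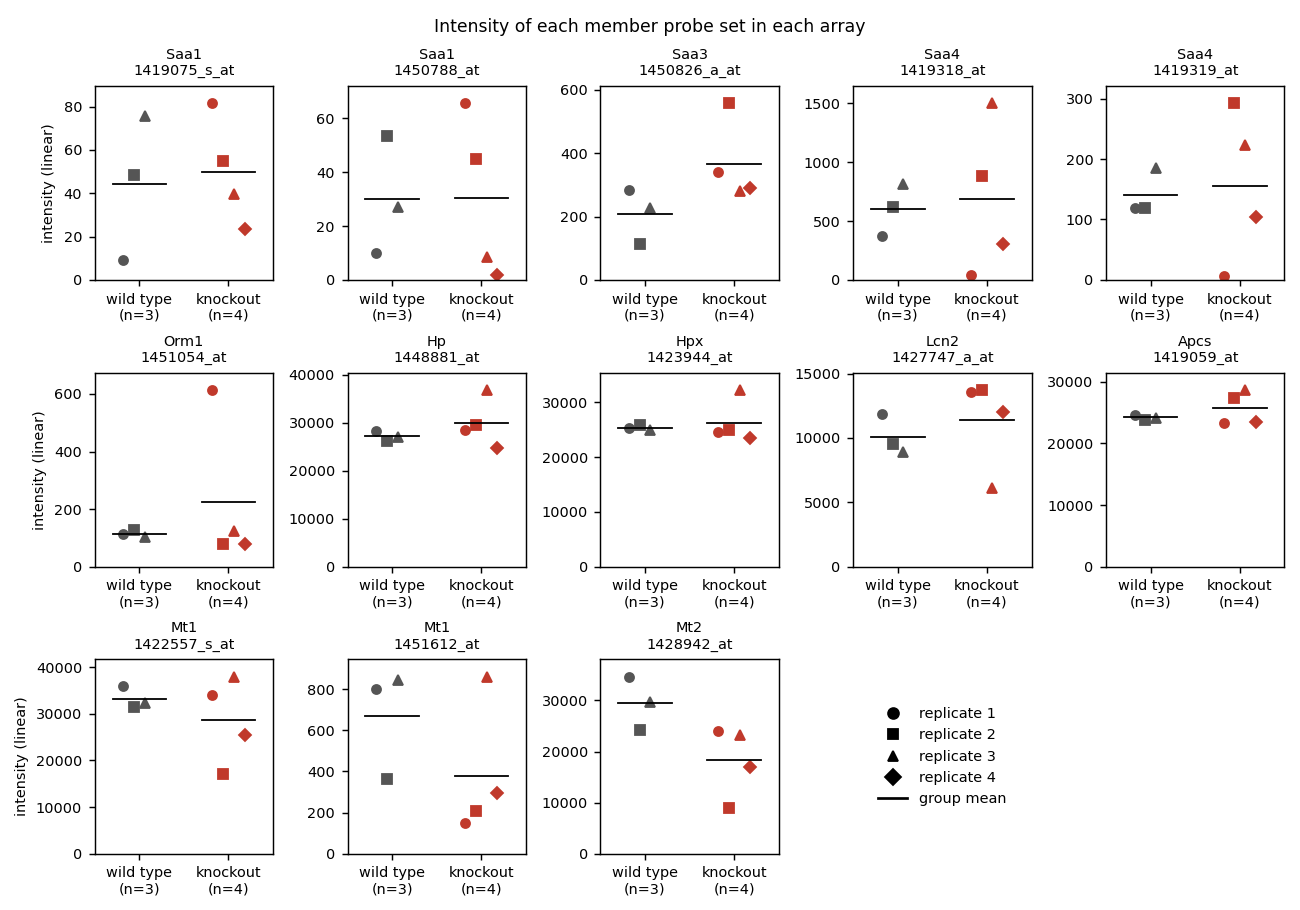
Linear intensity of each of the 13 member probe sets in each array, 1 panel per probe set, with 3 wild type (grey) and 4 knockout (red) livers; marker shapes are replicate numbers, black lines are group means, and each axis starts at 0. Mt2 is the only panel in which all knockout values lie below all wild type values. Single knockout livers stand apart for Orm1 and Hpx, and the knockout values of Saa4 are widely spread.

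Mt2, the second of the neighbouring metallothioneins, had the lowest adjusted p of the members. Its intensities were 34574, 24186 and 29781 in wild type and 23938, 9039, 23299 and 17039 in knockout livers 1 to 4. Every knockout value was below every wild type value, but wild type 2 and knockout 1 were only 249 apart, while knockout 2 lay far below the rest. The means were 29514 ± 5199 (SD, n = 3) and 18329 ± 6931 (SD, n = 4). The log2 fold change was -0.77 ± 0.29 (SE), with a 95% interval from -1.42 to -0.12 that is not adjusted for the number of tests. The adjusted p was 0.165 in limma. Permuting the genotype labels exactly, in all 35 ways and two-sided, gave p = 0.114. Without knockout 2 the log2 fold change was -0.46, and without knockout 3 it was -0.92 (adjusted p = 0.116).

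Mt1, which encodes the partner protein, was read by a bright and a dim probe set. The bright one, 1422557_s_at, of a type that can match several transcripts, gave 36065, 31422 and 32314 in wild type and 34138, 17200, 37892 and 25521 in knockout. Knockout 3 was the highest and knockout 2 the lowest of the 7 arrays, so the groups overlapped. Its log2 fold change was -0.27 ± 0.23 (adjusted p = 0.519 in limma; 95% interval -0.78 to 0.23). Leaving out knockout 2 took it to -0.05, and leaving out knockout 3 took it to -0.43 (adjusted p = 0.256). The dim probe set, 1451612_at, gave 800.0, 361.6 and 843.9 in wild type and 147.4, 208.4, 859.3 and 293.1 in knockout. Knockout 3 alone among the knockout livers reached the wild type range, above its upper end. The estimate was -1.03 ± 0.51 (adjusted p = 0.274 in limma; 95% interval -2.16 to 0.11). Without knockout 3, the array with the pancreatic transcripts and the highest control ratios, it was -1.52 and passed (adjusted p = 0.0431 in limma), the only call made for a member in any setting tried.

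The metallothionein probe sets were also compared within each array, where the scaling between arrays cancels. The log2 signal of Mt2 minus that of bright Mt1 was -0.06, -0.38 and -0.12 in wild type and -0.51, -0.93, -0.70 and -0.58 in knockout. All 4 knockout livers were below all 3 wild type livers. The difference between the groups was -0.50, with means of -0.19 ± 0.17 (SD, n = 3) and -0.68 ± 0.18 (SD, n = 4) (exact two-sided permutation p = 0.0286, the smallest that 35 splits allow). It was 1 of 4 such pairs of probe sets, and after adjustment over the 4 the exact p was 0.114. Leaving out 1 array at a time moved it between -0.59 and -0.41. The other pairs had exact permutation p values of 0.286 to 0.743. Mt2 minus dim Mt1 differed by 0.26 between the groups, in the opposite direction. Dim minus bright Mt1 differed by -0.75, and the dimmer minus the brighter Saa4 probe set by 0.15. The sign of the difference between Mt2 and Mt1 thus depended on which Mt1 probe set was read. Bright Mt1 and Mt2 lay near the top of the scale, where the brightest probe set of an array read 37477 to 48602, and whether the signal flattens there was not tested.

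**Figure D2:**
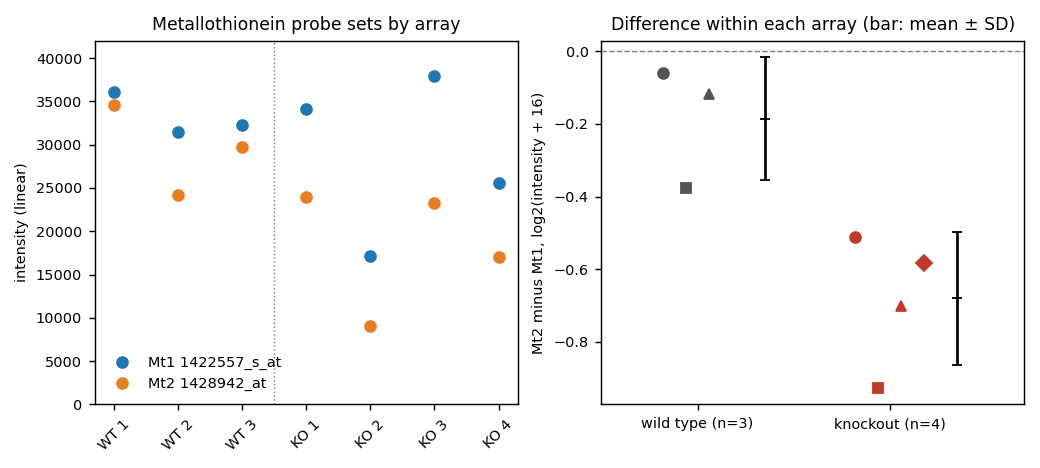
Left, linear intensity of the bright Mt1 probe set (blue) and the Mt2 probe set (orange) in each wild type (WT) and knockout (KO) array. Right, the log2(intensity + 16) of Mt2 minus that of bright Mt1 within each array, with mean ± SD per group; wild type livers lie between -0.38 and -0.06 and knockout livers between -0.93 and -0.51.

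Saa3, a serum amyloid A made in macrophages and fat as well as liver, had the largest positive estimate. Its intensities were 283.1, 112.7 and 227.4 in wild type and 340.1, 557.6, 281.6 and 291.0 in knockout. Knockout 3 at 281.6 fell just under wild type 1 at 283.1, and the other knockout livers were above all wild type livers. The means were 207.7 ± 86.9 (SD, n = 3) and 367.6 ± 129.3 (SD, n = 4). The log2 fold change was 0.81 ± 0.32, with a 95% interval from 0.11 to 1.52 (adjusted p = 0.173 in limma; exact two-sided permutation p = 0.0571). Leaving out wild type 2 took it to 0.45, and leaving out wild type 1 took it to 1.06. Macrophage markers, of which 4 of 12 were higher and 8 lower with 0 past the threshold, had mean log2 levels of 10.8 to 11.0 in wild type and 10.7 to 11.1 in knockout. Their part in the Saa3 values was not tested.

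Saa1, the serum amyloid A that rises steeply in plasma during inflammation, was near the bottom of the scale in all livers. Its probe set 1450788_at read 9.9 to 53.5 in wild type and 1.9 to 65.6 in knockout. The other, 1419075_s_at, read 9.0 to 75.8 and 23.5 to 81.5. Both fell below the expression filter and were not tested in the fit, and exact permutation p values were 0.857 and 0.657. The RefSeq table lists Saa2 as an alias of Saa1, while the array's annotation names Saa2 separately. The brightest Saa2 probe set also fell below the filter. Whether the probe sets tell these closely related genes apart was not examined.

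Saa4, the serum amyloid A that is present in plasma without inflammation, varied most among the members. Probe set 1419318_at gave 369.7, 615.9 and 812.7 in wild type and 45.8, 883.7, 1498.0 and 306.1 in knockout. Probe set 1419319_at gave 118.9, 118.7 and 185.7 in wild type and 6.2, 292.0, 222.4 and 103.9 in knockout. On both, knockout 1 was lowest and knockout 4 next, with knockout 2 and 3 above all wild type livers. The highest knockout value was 32.7 times the lowest on the first and 47.1 times on the second, against 2.20 and 1.56 times in wild type. Log2 fold changes were -0.53 ± 0.87 and -0.38 ± 0.74 (adjusted p = 0.772 and 0.810 in limma). Without knockout 1 both estimates changed sign, to 0.37 and 0.42, and without knockout 3 they were -1.17 and -0.72.

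Orm1, which encodes the acid glycoprotein orosomucoid, was high in 1 knockout liver. Its intensities were 112.3, 128.4 and 103.1 in wild type and 613.0, 79.0, 124.8 and 78.6 in knockout. Knockout 1, the liver with the lowest Saa4, stood far above the other 6, and knockout 2 and 4 were below all wild type livers. The log2 fold change of 0.37 ± 0.57 (adjusted p = 0.755 in limma) became -0.27 without knockout 1. Orm2 and Orm3, its close relatives, fell below the filter.

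Haptoglobin (Hp) carries free haemoglobin, hemopexin (Hpx) carries free haem, and Apcs encodes serum amyloid P, a pentraxin of mouse plasma. All 3 were bright in every liver and nearly constant between wild type livers. Hp ran from 26209 to 28322 in wild type and from 24769 to 36814 in knockout. Hpx ran from 24861 to 25842 and from 23549 to 32170, and Apcs from 23874 to 24681 and from 23373 to 28638. Knockout 3 was the highest array for each of the 3, and the knockout range enclosed the wild type range each time. The ratio of knockout to wild type was 1.09 for Hp (95% interval 0.903 to 1.32; adjusted p = 0.598 in limma). It was 1.03 for Hpx (0.867 to 1.23; adjusted p = 0.863) and 1.06 for Apcs (0.912 to 1.23; adjusted p = 0.670). Without knockout 3 the Hpx log2 fold change went from 0.04 to -0.06, that of Hp from 0.13 to 0.02 and that of Apcs from 0.08 to 0.03. Knockout 3 was also the array with the pancreatic transcripts and the highest control ratios. Knockout 2 was next highest for Hp and Apcs, with Cpa1 at 8.8 and the lowest actin control ratio, 1.125. The part of the pancreatic transcripts and the control ratios in these values was not tested.

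Lcn2 encodes lipocalin 2, which withholds iron-loaded siderophores from bacteria and is also a granule protein of neutrophils. Its intensities were 11831, 9548 and 8872 in wild type and 13592, 13702, 6119 and 12039 in knockout. Knockout 1, 2 and 4 were above all wild type livers, while knockout 3 was below them all. The log2 fold change was 0.11 ± 0.26 (adjusted p = 0.840 in limma; ratio 1.08, 95% interval 0.729 to 1.60). Without knockout 3 it was 0.39 (adjusted p = 0.111). Of 11 measured markers of neutrophils and their precursors, 1 was higher and 10 were lower in knockout, 0 past the threshold. Their mean log2 level was 12.4 to 12.7 in wild type and at most 12.7 in knockout. In knockout 1, where Lcn2 was high, it was lowest, 0.37 below the lowest wild type liver. Among knockout 2, 3 and 4 it ran in the same order as Lcn2, highest in knockout 2 and lowest in knockout 3. In wild type livers 1 to 3 the marker level was 12.75, 12.37 and 12.65. There the orders differed, with the markers lowest in wild type 2 and Lcn2 lowest in wild type 3. The part of these cells, and of the pancreatic transcripts in knockout 3, in the Lcn2 values was not tested.

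**Figure D3:**
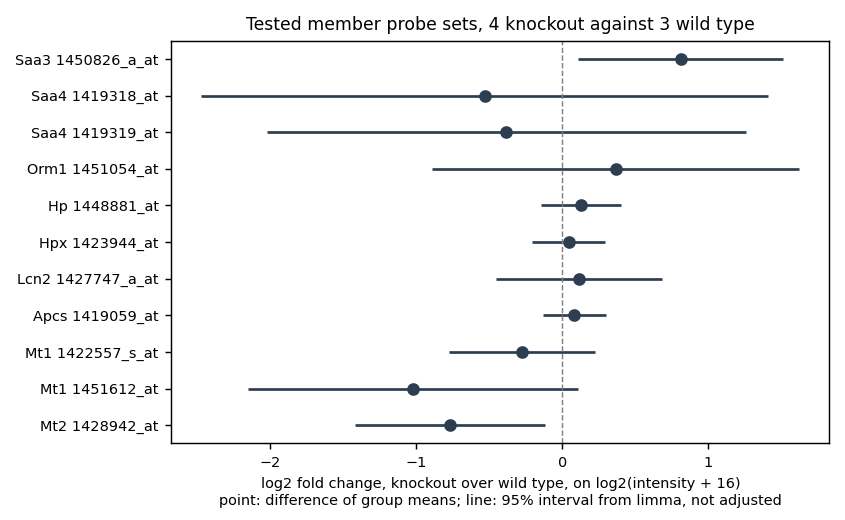
Log2 fold change of knockout over wild type for the 11 tested member probe sets, on log2(intensity + 16); points are differences of group means and lines are unadjusted 95% intervals from limma. Intervals are narrow for Hp, Hpx and Apcs and wide for Saa4 and Orm1, and only those of Saa3 and Mt2 exclude 0.

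The members differed among the knockout livers more than among the wild type livers. The SD of log2 values was larger in knockout for 10 of the 11 tested probe sets, all but Saa3, against 67.5% of all tested probe sets. The median ratio of the SDs was 4.20 for the members and 1.39 for all tested probe sets. Without knockout 3 the knockout SD was larger for 8 of the 11, against 57.7% of all tested. The groups hold 3 and 4 livers, and the difference in spread was described and not tested. The livers that stood apart were not the same for each gene. Knockout 1 was the lowest array for 4 of the 13 probe sets and the highest for 3, knockout 3 was the highest for 6, and knockout 4 was the lowest for 4. The pooled within-group SDs of the Saa4 probe sets, 1.61 and 1.34, were at percentiles 99.95 and 99.86 of all tested, and that of Apcs was 0.12, against a median of 0.25 over all tested probe sets.

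**Figure D4:**
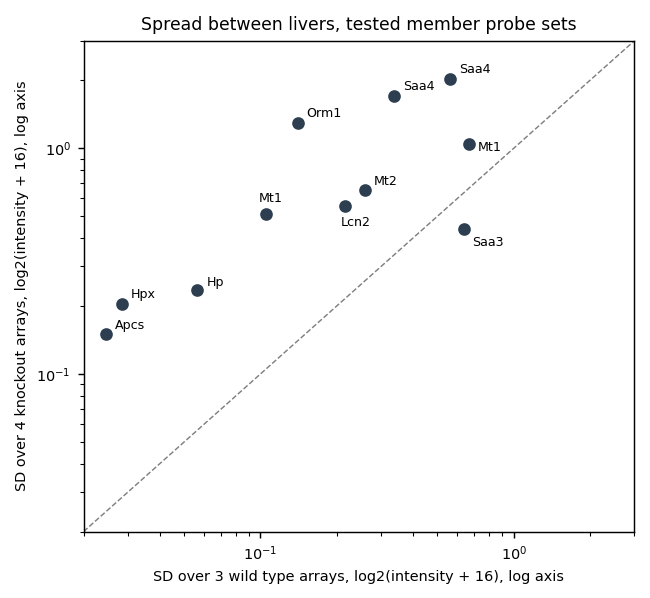
SD of log2(intensity + 16) over the 4 knockout arrays (vertical, log axis) against that over the 3 wild type arrays (horizontal, log axis) for the 11 tested member probe sets; the dashed line marks equal SDs. All points but Saa3 lie above the line, and Hp, Hpx and Apcs have the smallest SDs in both groups.

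Other genes of these pathways were taken from 6 lists, each gene read by its brightest probe set, and of all such probe sets 4.76% were called, 3.09% higher and 1.67% lower. Of 23 tested acute phase genes other than the members, 8 were higher and 15 lower in knockout, with a median log2 fold change of -0.06. Only Cd14, a receptor for bacterial lipopolysaccharide that is shed into plasma, passed. It fell from 1242 ± 349 to 446.3 ± 165.5 (SD, n = 3 and 4), a log2 fold change of -1.47 ± 0.28 (adjusted p = 0.0231 in limma). The call was lost on leaving out wild type 1, wild type 3, knockout 2 or knockout 4, with adjusted p up to 0.119. The fibrinogen genes Fga, Fgb and Fgg, named here for their role and outside the rule, were at -0.06, -0.07 and -0.03 (adjusted p = 0.755, 0.734 and 0.858 in limma). Serpina3n and Steap4, also named outside the rule, were at -0.57 and 0.84 (adjusted p = 0.0912 and 0.1435 in limma). The groups did not overlap for 2 of the 23 genes, Cd14 and Serpina3n, against 21.1% of all tested probe sets.

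Of 14 plasma protein genes that go down in the acute phase, 2 rose and 0 fell, with a median log2 fold change of 0.06. Igf1, the growth factor made by liver, rose by 1.12 ± 0.17 on its brightest probe set (adjusted p = 0.0088 in limma), which passed whichever array was left out. Of its 4 tested probe sets 2 passed, and the others were at 0.55 and 0.82 (adjusted p = 0.122 and 0.0535 in limma). Serpina6, the corticosteroid carrier of plasma, rose by 1.78 ± 0.31 (adjusted p = 0.0160). Among runs that left out an array it failed only without wild type 3 (adjusted p = 0.0741). It was dim, at 29.7 to 112.3 in wild type and 223.0 to 264.9 in knockout. Its estimate depended on the offset, at 2.04 with offset 1 and 1.29 with offset 64. The transport proteins Alb and Ttr, named outside the rule, were at 0.08 and 0.08 (adjusted p = 0.753 and 0.762 in limma). Of 4 tested Ttr probe sets, 3 had the opposite sign to this one. By estimate 10 of the 14 genes were higher and 4 lower. Fetub and Itih1, also named outside the rule, were among the lower, at -0.30 and -0.39 (adjusted p = 0.170 and 0.218 in limma).

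Among 23 tested genes that carry cytokine signals to acute phase genes, 11 were higher and 12 lower, with 0 past the threshold and a median of -0.02. The lowest p values belonged to Cebpa and Socs3. Cebpa, a transcription factor of hepatocytes, was at 0.73 ± 0.27 (adjusted p = 0.147 in limma). Socs3, a feedback inhibitor that STAT3 induces, read 975.2 to 1269 in wild type and 230.6 to 907.0 in knockout, without overlap, at 0.499 times the wild type level (adjusted p = 0.153). The transcripts of the cytokines Il6 and Tnf fell below the filter.

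Of 20 tested genes of metal handling, 13 were higher and 7 lower in knockout, with a median of 0.12, and 2 rose. Slc31a1, the copper importer, rose from 678.1 ± 105.0 to 1255 ± 125 (SD, n = 3 and 4; log2 fold change 0.88 ± 0.16, adjusted p = 0.0179 in limma). The call was lost on leaving out any wild type array (highest adjusted p = 0.0644) and with the replicate block (adjusted p = 0.059). The other Slc31a1 probe set was at 0.78 and passed (adjusted p = 0.047 in limma), and its dependence on these settings was not examined. Ccs, the copper chaperone of superoxide dismutase, was at 0.54 ± 0.13 (adjusted p = 0.0495) and passed in 1 of 7 runs that left out an array, that without knockout 1, and in 2 of 9 other settings (highest adjusted p = 0.157). Mtf1, the metal-sensing factor, and Slc30a1, a zinc exporter it induces, were named outside the rule and stood at 0.07 and 0.19 (adjusted p = 0.843 and 0.639 in limma). The groups did not overlap for 6 of the 20 genes, against 21.1% of all tested probe sets. Slc39a14 and Slc39a4, also named outside the rule, were among the 6, at -0.81 and 0.89 (adjusted p = 0.0579 and 0.0559 in limma).

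Glucocorticoid response genes, which share an inducer with the metallothioneins, were lower for 14 of 15 tested, with a median of -0.51. Of these 3 fell and 0 rose: Gadd45a, a growth arrest gene, at -1.26 ± 0.21, Zbtb16, a zinc finger repressor, at -1.04 ± 0.23 and Sgk1, a kinase of ion transport, at -1.27 ± 0.29 (adjusted p = 0.0122, 0.0392 and 0.0392 in limma). Gadd45a lost its call on leaving out wild type 2 or 3, with adjusted p up to 0.0714, and Zbtb16 and Sgk1 passed in only 1 of 7 runs that left out an array, that without knockout 1. With arrays scaled to equal medians, without the filter or without the variance trend, Zbtb16 and Sgk1 lost their calls (adjusted p up to 0.069 and 0.0732). Of 3 tested Zbtb16 probe sets 2 passed, and the other was at -0.24 (adjusted p = 0.559 in limma). The mean log2 level of the list was 11.7 to 11.9 in wild type and 10.9 to 11.5 in knockout. It was lowest in knockout 2, the liver with the lowest Mt2 and bright Mt1. Dim Mt1 was lowest in knockout 1 and bright Mt1 highest in knockout 3, and the list level was 11.5 in both of these livers. Without knockout 2 the median was -0.31. The part of the glucocorticoid response in the metallothionein values was not tested.

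Among 14 genes that handle haemoglobin, haem and iron, 7 were higher and 7 lower, and 2 rose. Lrp1, the receptor that takes up haem bound to hemopexin, was at 0.93 ± 0.18 and Hjv, a coreceptor of hepcidin regulation, at 0.91 ± 0.20 (adjusted p = 0.0245 and 0.0392 in limma). Lrp1 lost its call on leaving out any wild type array, knockout 2 or knockout 4, and with the replicate block. Hjv passed only without knockout 4 among the 7 such runs, and failed without the filter or the trend. The highest adjusted p values in these runs were 0.119 for Lrp1 and 0.115 for Hjv. A dimmer Lrp1 probe set was at 0.41 and did not pass (adjusted p = 0.230 in limma). The other Hjv probe set was at 0.90 and passed (adjusted p = 0.0388 in limma), and its dependence on these settings was not examined. Cd163, the macrophage receptor for haptoglobin bound to haemoglobin and named outside the rule, was at 0.07 (adjusted p = 0.912).

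**Figure D5:**
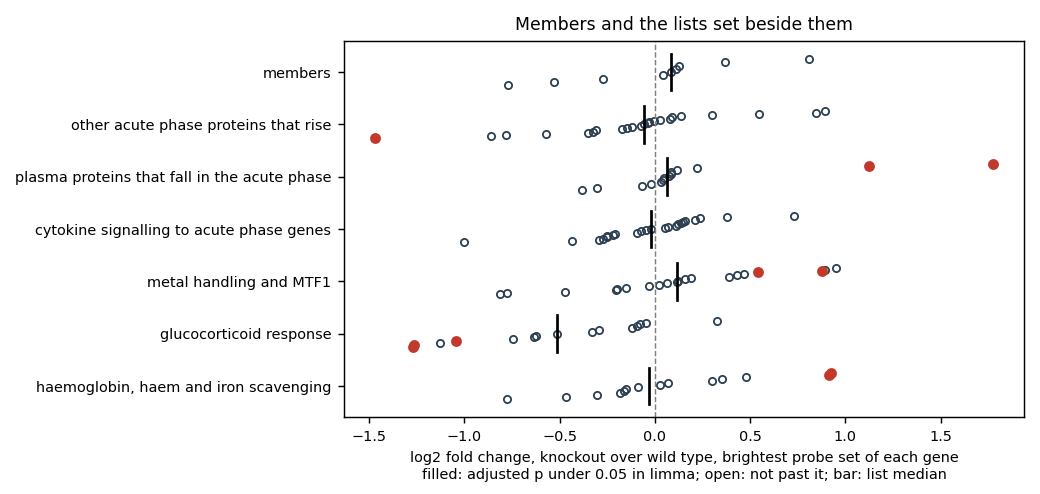
Log2 fold change of knockout over wild type for the brightest tested probe set of each gene in the members and in the 6 lists set beside them; filled red points passed an adjusted p of 0.05 in limma, open points did not, and bars are list medians. The members hold 0 filled points, and the glucocorticoid list has the lowest median, at -0.51.

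The genes whose levels ran most like the members over the 7 arrays were, for Mt2, Anapc16 (r = 0.996), a subunit of the anaphase-promoting complex, and, for bright Mt1, Arih1 (r = 0.991), a ubiquitin ligase. For Saa3 it was Car3 (r = 0.988), a carbonic anhydrase, for Lcn2 1110006O24Rik (r = 0.994) and for Orm1 Pou2f2 (r = 0.996), a transcription factor of B cells. For Saa4 it was Smchd1 (r = 0.995), a chromatin protein, for Hp Plvap (r = 0.969), an endothelial protein, for Hpx Lipe (r = 0.991), a lipase, and for Apcs Slco2a1 (r = 0.990), a prostaglandin transporter. Each member had from 56 to 223 probe sets with r over 0.9. These are Pearson correlations of log2 values over 7 arrays that share their scaling, chosen as the highest among all tested probe sets, and describe these arrays only.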

How the data were processed

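Liver RNA of 3 wild type and 4 knockout pups was measured, 1 array per liver, with groups and replicate numbers from the sample titles. The authors deposited linear intensities for every probe set. Per the submitters' processing notes the software was GCOS, with no version, and how probes were summarised is not stated there. Each array had been scaled to 1 target: the mean without the lowest and highest 2% was 499.3 to 499.7. Such scaling cannot show a change of total RNA. Between 35.4% and 39.4% of an array's probe sets lay under 50, and the number of arrays limits the precision.

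Values were taken as log2(intensity + 16), without further scaling because array medians lay within 0.2. After 64 control probe sets were left out, the 22518 with a mean above the median were tested with limma 3.58.1 in R 4.3.3 (eBayes with a trend), with Benjamini-Hochberg adjustment over all of them at 0.05. Fold changes understate those of dim probe sets. Errors are SDs over arrays, or standard errors from limma for fold changes. Exact permutation tests used all 35 splits. The steps were tested on simulated data. Plots were drawn with matplotlib 3.10.9.

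Names came from the platform annotation, which can be old, and RefSeq's table held the gene ID of 34754 of the 34958 probe sets that have 1 symbol. The members and the 6 pathway and 9 marker lists (210 genes) were chosen with earlier results of these data known. Named genes are all members, up to 4 called genes of smallest p per list, otherwise up to 2, and for members the gene of highest correlation; others were named after their values were seen. The alternatives varied offset, scaling, filter, variance model, threshold, probe set types, each array left out, and a replicate block; same-numbered livers did not deviate together (r = 0.09, -0.06 and 0.06).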

Additional observations from a re-analysis of the deposited data

Results flagged for a closer look

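In the 4 knockout livers, 3 of the 13 member probe sets had 1 liver far from the others by Dixon's ratio of gap to range. The critical value was 0.829, and chance flags about 1 in 20 groups. Both the intensity and the log2 scale were read, which adds to the chances of a flag. Each of the 3 passed the critical value on 1 scale only. Orm1 in knockout 1 was high, with a ratio of 0.914 on the intensity scale. Hpx in knockout 3 was high, with a ratio of 0.849 on the intensity scale. Lcn2 in knockout 3 was low, with a ratio of 0.839 on the log2 scale. Knockout 3 also had the highest 3' to 5' control ratios of the 7 arrays, and the highest levels of pancreatic transcripts. Cpa1 there had ratios of 0.994 on the intensity scale and 0.959 on the log2 scale, and Ins2 0.925 on the intensity scale. The part of both in the Hpx and Lcn2 values was not tested.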

How the results depend on the processing

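Of 199 values for the 13 member probe sets under other settings, 10 changed sign, 5 of them in tested probe sets and 5 in the untested, dim Saa1 ones, which stayed within 1 SD, and 1 other passed the threshold. Saa1 1419075_s_at went from 0.24 to -0.30 without wild type 1, and 1450788_at from -0.15 to 0.20, 0.07 and 0.22 without wild type 2, knockout 3 and knockout 4, and to 0.22 with the replicate block. The tested sign changes came from leaving out 1 array: without knockout 1 the log2 fold change was 0.37 and 0.42 for the Saa4 probe sets and -0.27 for Orm1, without knockout 3 -0.058 for Hpx, and without knockout 2 -0.0003 for Lcn2. Over the runs without 1 array the ranges were -1.17 to 0.37 and -0.84 to 0.42 for Saa4, -0.27 to 0.64 for Orm1, -0.058 to 0.092 for Hpx and -0.0003 to 0.39 for Lcn2. Lowered member probe sets and genes past the threshold numbered 0 to 1 over the runs without 1 array, the 1 being dim Mt1 without knockout 3, and raised ones 0 in every setting tried. The causes were not tested. With the replicate block, which the data did not bear out as a pairing, Mt2 was at -0.77 (adjusted p = 0.107) and Saa3 at 0.90 (adjusted p = 0.240), and no member's call changed. Knockout 4, alone in its block, adds nothing to that contrast; calls over all probe sets were 955 without the block, 351 with it and 375 on leaving out knockout 4 with no block. The calls numbered 127 to 1006 without 1 array, 473 without the filter, 584 without the trend and 611 without shared probe set types. Arrays scaled to equal medians gave 541 higher and 218 lower calls (71.3% higher) against 529 and 426 (55.4%), and leaving out wild type 3 gave 105 and 22 (82.7%). Leaving out 1 array for the pairs of probe sets was added after the data were seen. Low signal limits Saa1, and the brightest members lie near the top of the scale.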
